A study of Rattus norvegicus with 13 samples.

Results

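The comparison of morula embryos with sperm in the control lineage rested on 6 of the 13 libraries of the series, 3 from morulae and 3 from sperm. Each library was made by MeDIP-seq, in which an antibody against 5-methylcytosine precipitates methylated DNA fragments before sequencing. A 1000 bp window can therefore gather many reads because it is strongly methylated or because it offers many CpG sites to methylate. Of 2782040 windows in the deposited tables, the 2618741 on autosomes 1 to 20 were described.

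All rats were of the outbred strain Hsd:Sprague Dawley SD. Gestating females of generation F0 in the control lineage were injected with the vehicle dimethyl sulfoxide (DMSO) from embryonic day 8 to 14, and later generations were not treated. The sperm came from males of generation F3, also where it was used to make embryos. Animals of the lineages were aged to 1 year. Control sperm came from the cauda epididymis, and control morulae were obtained by intracytoplasmic injection of single thawed sperm heads (ICSI) into mature eggs of superovulated donor females, followed by culture. The embryo samples were pools, so that their DNA came from both the injected sperm and the eggs of the donors. The DDT lineage, whose F0 females received the insecticide DDT on the same days, was used here to form classes of windows, with 4 sperm and 3 morula libraries, and to give levels outside the comparison. No label states that replicates came from separate animals, so the spread and the p-values below describe these samples and may be technical in part.

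Mammalian sperm DNA is highly methylated outside CpG islands. After fertilisation the paternal genome loses most of its methylation by active and replication-coupled routes, and the maternal genome loses it mainly by dilution over the cleavage divisions, so that the morula and early blastocyst stand near the low point of methylation. Imprinted control regions and some families of retrotransposons are known to escape much of this loss. Every library here was precipitated and scaled to its own total, so a loss shared by the whole genome is not measured. What can be measured is which windows hold more or less of a library's signal. In a pool of embryos, methylation of the genome of 1 parent and partial methylation of both cannot be told apart.

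Total counts were 48923904 to 65864303 in the morula libraries, and 144738902, 193750804 and 30386626 in sperm replicates 1 to 3. Sperm replicate 3, the shallowest library, stood apart: 12.3% of autosomal windows had no count in it, against 4.68% to 5.04% in the other 5 control libraries. DDT-lineage sperm replicate 4, which helps to form the sperm class below, was alike, with 33684143 counts and 11.01% of windows without a count. Some main results on the high sperm class are given without 1 or the other of these libraries as well. Retention by level of sperm signal, summed ranks, shares of counts and levels of kept and lost windows are given only with both. The same holds for results by chromosome, by nearby windows and by neighbours. The mitochondrial genome held 0.0302% to 0.0473% of counts in the morula and 0.00265% to 0.00334% in the sperm libraries. The groups did not overlap on this share, and its part in the results was not tested.

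To ask what happens to windows of high signal, classes were formed by libraries that were not compared. The high sperm class was the top 10% of windows by mean CPM (the usual scaling of a count by its library's total) over DDT-lineage sperm, and the high morula class the top 10% by mean CPM over DDT-lineage morulae. Of the autosomal windows, 2510109 had at least 1 count in those libraries and were placed, which gave 251011 windows in each class. The classes shared 136570 windows, 54.4% of each. The cut lay at 0.811 CPM in DDT-lineage sperm and at 0.549 CPM in DDT-lineage morulae. The 1000 windows just inside the sperm cut had a median of 0.431 CPM in control morulae and 0.762 in control sperm, and the 1000 just outside had 0.437 and 0.766, so nothing changed abruptly at the cut.

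Most windows of high sperm signal stayed among the higher-ranked windows of the embryo, but fewer stayed at the top than in another sperm library. At equal depth, 51.9%, 52.5% and 50.4% of the high sperm class lay in the top 10% of control morula replicates 1 to 3. The same class held 64.7%, 58.6% and 69.6% within the top 10% of control sperm replicates 1 to 3. All 3 morula libraries lay below all 3 sperm libraries, with means of 51.6% ± 1.09 and 64.3% ± 5.50 (SD, n = 3), a difference of -12.7 percentage points. A two-sided exact permutation test gave p = 0.1, the smallest that 3 against 3 allows, and an adjusted p of 0.133 over 4 such tests. Without sperm replicate 3 the difference was -10.1 percentage points. The class itself mattered for that library. When it was formed without DDT-lineage sperm replicate 4, the sperm values were 69.6%, 63.4% and 57.8% and the morula values 48.7% to 51.3%, so sperm replicate 3 went from highest to lowest of the sperm libraries and the groups still did not overlap. When it was formed by DDT-lineage sperm replicate 4 alone, sperm replicate 3 held 80.2%, while sperm replicates 1 and 2 held 44.9% and 40.9%, below the 45.002% to 45.6% of the morula libraries.

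A fall to the lower ranks was uncommon. In the single morula libraries 8.70% to 10.8% of the high sperm class lay at or below the library's median window, against 0.516% to 0.882% in the sperm libraries. When the 3 morula libraries were summed at equal depth, 55.3% of the class ranked in the highest of 10 equal groups, 20.7% in the next and 9.88% in the one after it, and 0.0725% in the lowest. Summed in the same way, the control sperm libraries placed 78.0% in the highest group and 18.8% in the next.

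**Figure D1:**
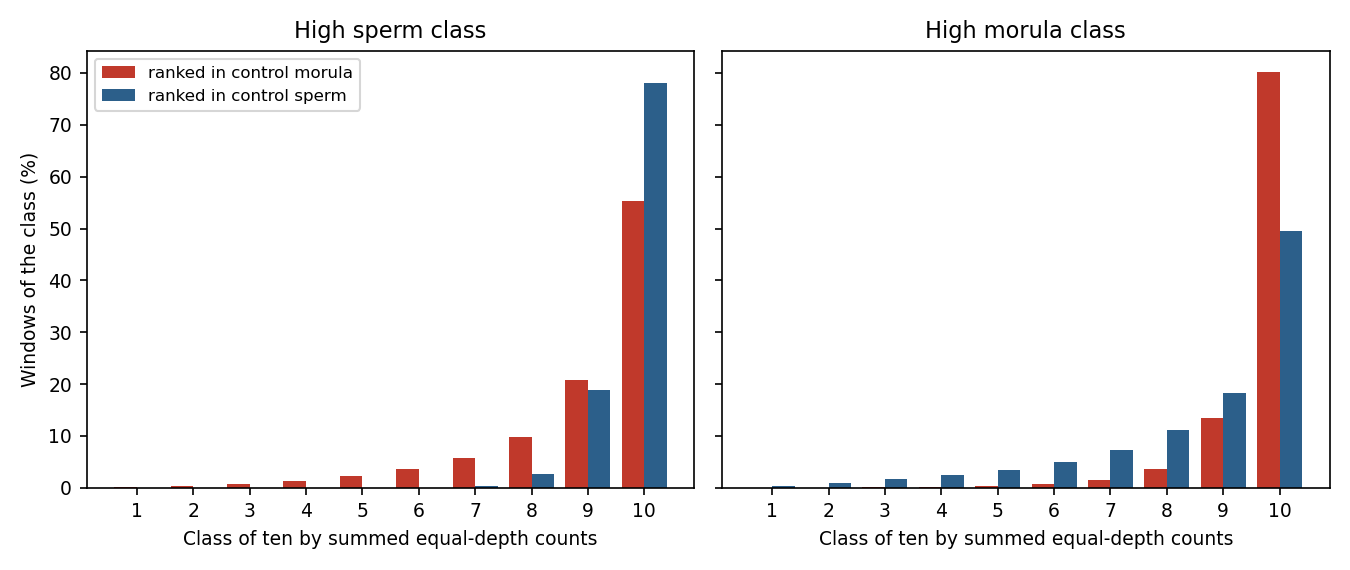
Where the top 10% of windows by DDT-lineage sperm signal (left) or morula signal (right) ranked in the control lineage. The x axis gives 10 equal groups of windows by counts summed over 3 libraries at equal depth, and the y axis the percentage of the class. Of the high sperm class, 55.3% ranked in the highest group in morulae and 78.0% in sperm. Of the high morula class, 80.3% and 49.5% did.

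Windows of the high sperm class were called kept when they lay in the top 10% of every morula library, and lost when they lay at or below the median of every one. By this rule 97404 windows (38.8%) were kept, 2375 (0.946%) were lost and 60.2% fell between. In the 3 control sperm libraries 36.0% met the rule for kept and 2 windows that for lost. Over pairs of sperm libraries, 50.8% lay in the top 10% of both sperm replicates 1 and 2, while pairs with replicate 3 gave 44.7% and 41.1%. Pairs of morula libraries gave 42% to 42.7%. The pairs of morula libraries thus kept fewer windows than sperm replicates 1 and 2 did, and slightly more than sperm replicates 2 and 3 did.

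The overlap of the top 10% between single libraries, without any class, showed the same only in part. Morula pairs again lay below sperm replicates 1 and 2, but here far above both pairs with sperm replicate 3. Pairs of morula libraries shared 66.6% to 66.8% of these windows, and sperm replicates 1 and 2 shared 69.3%. Sperm replicate 3 shared 47.4% with replicate 1 and 43.8% with replicate 2. Between sperm and morulae the 9 pairs shared 37.9% to 46.1%. With sperm replicate 2 the morula libraries shared 37.9% to 39.95%, and with sperm replicate 1 they shared 43.97% to 46.1%. Sperm replicate 3 thus shared more with each of these 2 libraries than any morula library did. It also shared 44.6% to 45.4% with the morula libraries, slightly more than with sperm replicate 2.

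Retention rose steeply with the level of sperm signal. Among windows ranked from 90 to 95% in DDT-lineage sperm, 31.7% to 33.2% lay in the top 10% of the morula libraries, against 42.3% to 52.7% in the sperm libraries. From 95 to 98% the ranges were 53.3% to 56.8% and 63.2% to 79.2%. From 98 to 99% they overlapped, at 87.2% to 89.3% in morulae and 87.0% to 95.5% in sperm. In the next range, from 99% up to the top 0.1%, the values were 97.9% to 98.4% and 97.5% to 99.3%. Of the 2511 windows in the top 0.1%, 2509 were kept in all 3 morula libraries. The 2375 lost windows came almost wholly from the lowest of these ranges, with 2113 from 90 to 95%, 260 from 95 to 98% and 2 from 98 to 99%. A window near the cut has less far to fall to leave the top ranks, which is why the sperm libraries are set beside each value.

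**Figure D2:**
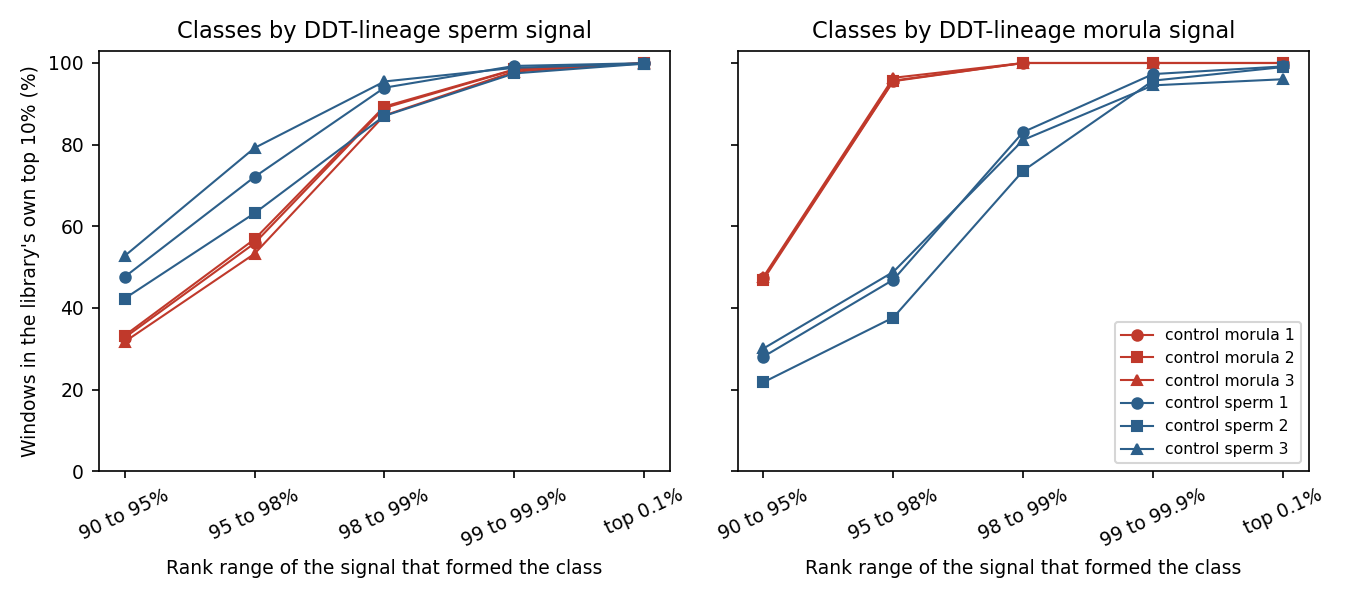
Share of windows within each library's own top 10% (y axis, percent, at equal depth) by the rank range of the signal that formed the class (x axis). Each line is 1 control library, with morulae in red and sperm in blue. On the left, classes by DDT-lineage sperm signal, the lines run together above the 98% rank. On the right, classes by DDT-lineage morula signal, the sperm libraries reach 37.6% to 48.8% at 95 to 98% and the morula libraries 95.5% to 96.4%.

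The test of single windows (edgeR's quasi-likelihood test, Benjamini-Hochberg adjusted p under 0.05) gave calls and log2 differences. Over all 2455736 autosomal windows tested, 413349 were higher in morulae, 16.8% of those tested, and 315099 were lower, 12.8%. All 251011 windows of the high sperm class passed the filter on low counts. Of them, 90462 (36.0%) fell, 7621 (3.04%) rose and 152928 (60.9%) did not pass the test. Most falls past the test reached 2-fold, in 33.2% of the class against 12% of all windows, but 4-fold falls were rare, in 2.61% against 0.725%. In simulated counts the test found 0 of 100 windows changed 2-fold and 39 of 100 changed 4-fold. Few windows were changed there, which makes the adjusted threshold stricter than here. Windows that did not pass are therefore not shown to be unchanged, and those that passed lean to large changes by the limit of the test. Rises of at least 2-fold were called in 1.66% of the class and 16.4% of all windows. The median log2 difference of morula over sperm was -0.73 in the class and 0.06 over all autosomal windows. Falls were fewest in the upper ranges, with 42% of windows in the range from 90 to 95%, 39.6% from 95 to 98%, 20.5% from 98 to 99% and 11% from 99% up to the top 0.1%. This order turned round when the trend of counts with window abundance was removed from each library, with falls in 6.98%, 16.4%, 25.02% and 24.3% of the same 4 ranges.

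The share called moved with single libraries, and with it the share over all windows. Without sperm replicate 3, 51.1% of the high sperm class fell and 15.9% rose, against 24.0% and 21.7% of all windows tested. In that fit more windows rose than fell from 99% up to the top 0.1%, with 39.8% against 18.02%. Without 1 of the morula replicates 14.1% to 16.8% of the class fell and 0.509% to 0.627% rose, against 4.32% to 5.23% and 8.60% to 9.76% of all windows. Without sperm replicate 1, 27.4% of the class fell and 0.774% rose, against 8.13% and 10.1% of all windows. Without sperm replicate 2 these shares were 29.8% and 0.858%, against 7.28% and 10.4%. At the depth of the smallest library 17.2% of the class fell, against 4.74% of all windows, and with the abundance trend removed 13.4% fell, against 4.73%. In each of these fits more windows of the class fell than rose, and the share that fell was above that of all windows.

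Counts at high signal also grew less than depth. Between sperm libraries, the slope of log mean count on log library total was 1.17 in the fifth of 10 sperm classes and 0.916, 0.815, 0.717, 0.679 and 0.553 in the 5 rising ranges of the top 10%, where a slope of 1 means that counts follow depth. The highest autosomal count was 1676 in the shallowest sperm library and 2000 in the deepest. Mean signal from 99% up to the top 0.1% was 2.08, 1.79 and 3.32 CPM in sperm replicates 1 to 3, and 2.45, 2.53 and 2.66 CPM in morula replicates 1 to 3, so the morula libraries lay between the sperm libraries. The low depth of sperm replicate 3 and any other property of that library cannot be told apart. A correction of each count for a ceiling of 2000, added after seeing the data, left 37.5% of the high sperm class called lower and 3.25% called higher.

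**Figure D3:**
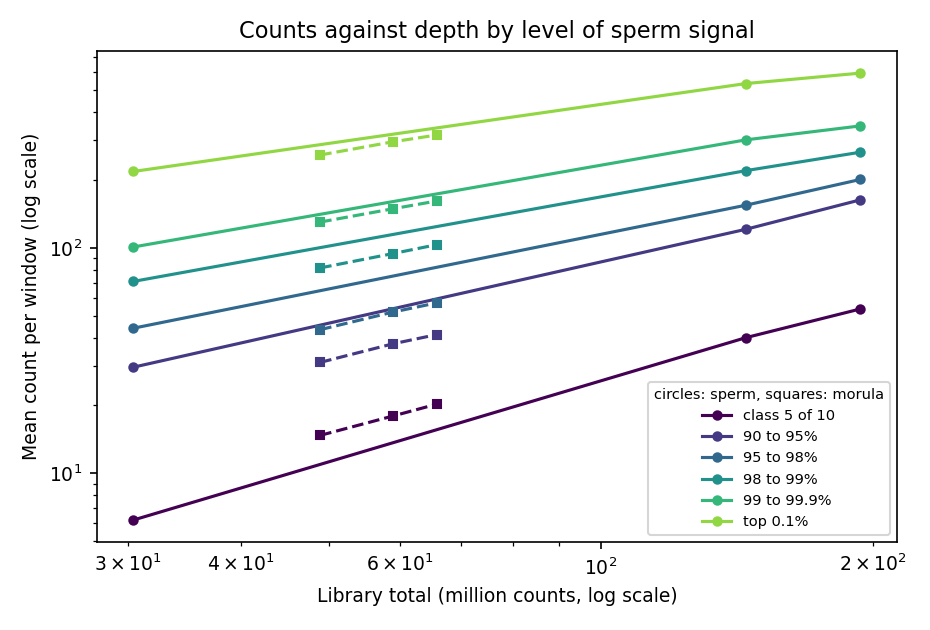
Mean count per window (y axis, log scale) against the total count of the library (x axis, log scale), for 6 ranges of DDT-lineage sperm signal. Circles joined by solid lines are the 3 control sperm libraries and squares joined by dashed lines the 3 control morula libraries. The lines of the highest ranges are flatter, with a slope of 0.553 in the top 0.1% against 1.17 in the fifth class of 10.

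Windows of high morula signal were described in the same way. Of the high morula class, 72.4%, 72.1% and 72.7% lay in the top 10% of control morula replicates 1 to 3, and 46.2%, 39.2% and 47.3% in that of control sperm replicates 1 to 3. The means were 72.4% ± 0.297 and 44.2% ± 4.40 (SD, n = 3), with no overlap and an exact permutation p of 0.1 (two-sided, adjusted p = 0.133). In this class 44653 windows (17.8%) were higher and 19988 (7.96%) lower in morulae, against 16.8% and 12.8% of all autosomal windows. In this fit the share of higher windows was close to that of all windows. With the abundance trend removed it was 24.9% against 4.48% of all windows, and the share of lower windows was 6.58% against 4.73%. At the depth of the smallest library 11.04% were higher, against 5.93% of all windows. The median log2 difference was 0.16. It was 0.03 without sperm replicate 2. Without sperm replicate 3, 38.3% of the class was higher and 17.6% lower, against 21.7% and 24.0% of all windows. With any other library left out 9.04% to 9.6% of the class was higher, against 8.60% to 10.4% of all windows, and 1.60% to 6.7% was lower, against 4.32% to 8.13%. Each class was picked by signal in 1 tissue and ranked higher in libraries of that tissue, so from either class alone the choice of tissue and a change between tissues cannot be told apart.

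Within the high morula class falls became fewer with the level, while rises had no steady order. From 90 to 95% of morula signal 13.2% of windows rose and 13.6% fell, against 16.8% and 12.8% of all windows. From 95 to 98% the shares were 24.6% and 3.82%, and from 98 to 99% they were 25.5% and 0.291%. From 99% up to the top 0.1%, 11.6% rose and 0.0708% fell, and in the top 0.1%, 24.1% rose and 0 fell. The ranges were ordered by morula signal, so here too the choice of tissue and a change between tissues cannot be told apart. Of windows from 99% up to the top 0.1%, 94.5% to 97.3% lay in the top 10% of the sperm libraries. By rank, the highest windows of the embryo were thus also among the highest in sperm.

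Over all 10 classes by sperm signal, the share of tested windows that were higher in morulae was 75.8% in the lowest class and 3.04% in the highest, and the share that were lower was 0.0218% and 36.0%. Over the 10 classes by morula signal the shares differed far less, with 26.1% higher and 7.22% lower in the lowest class and 8.95% higher and 17.3% lower in the ninth. The tenth turned the other way. In the lowest classes 48929 windows by sperm signal and 50244 by morula signal did not reach the minimum count, and a window of low sperm signal could pass it through its morula counts, so no weight is placed on those classes.

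Another grouping, by the average of sperm and morula CPM in the DDT lineage, was chosen after seeing the data. It did not stand midway between the tissues. Its ninth class had 34.0% lower and 4.02% higher windows. The ninth class by sperm signal had 36.0% and 2.66%, and that by morula signal 17.3% and 8.95%. In the top 10% by the average, 24.3% of windows fell and 9.34% rose, against 12.8% and 16.8% of all windows, with a median log2 difference of -0.33. In rank the direction turned: 66.0%, 66.4% and 64.8% of these windows lay in the top 10% of morula replicates 1 to 3, and 60.3%, 52.6% and 63.7% in that of sperm replicates 1 to 3. Falls were concentrated in its lower part, with 35.2% lower and 6.55% higher from 90 to 95%, against 1.96% lower and 4.52% higher from 99% up to the top 0.1%. Windows of the highest ranges can hardly leave a top 10%, and their counts grew less than depth, so neither measure shows well whether their signal changed.

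**Figure D4:**
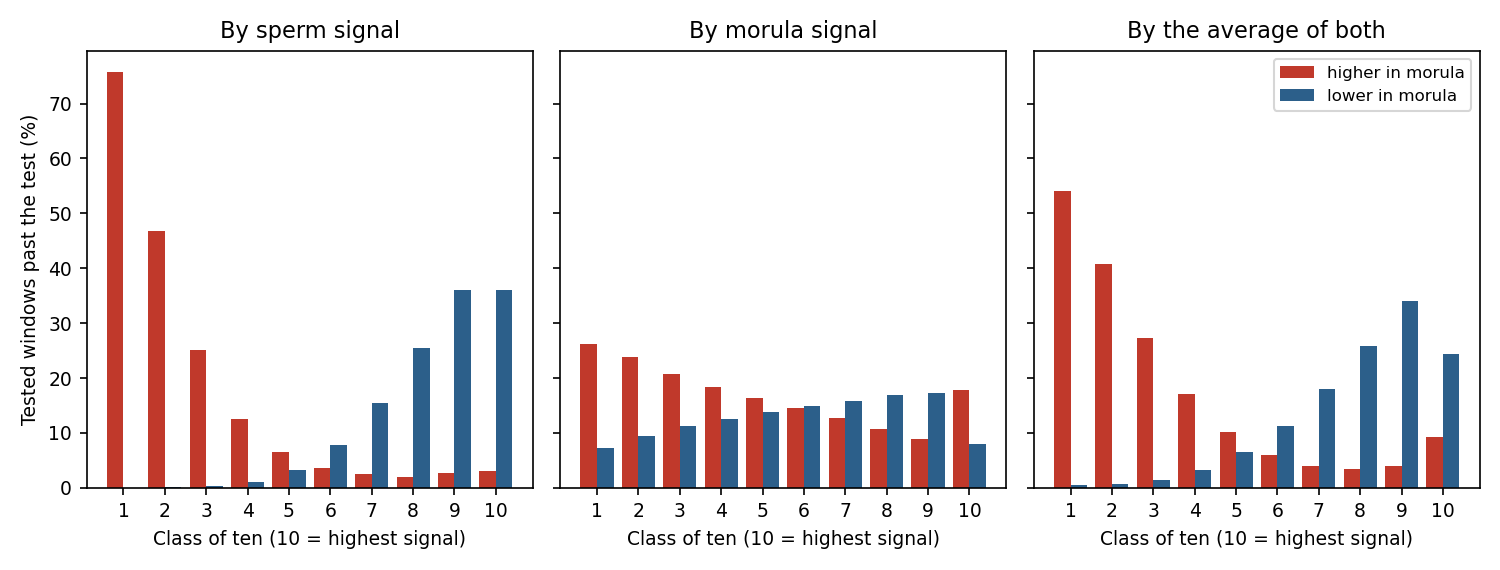
Percentage of tested autosomal windows that passed edgeR's test as higher (red) or lower (blue) in control morulae than in control sperm (y axis), in 10 equal classes (x axis) formed by the sperm signal, the morula signal or the average of both in the DDT lineage. The highest class by sperm signal had 36.0% lower and 3.04% higher windows, and the highest by morula signal 7.96% and 17.8%.

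The share of all autosomal counts in the 2 classes varied more between sperm libraries than between tissues. The high sperm class took 26.1%, 26.7% and 27.3% of counts in the morula libraries and 28.8%, 27.4% and 39.7% in sperm replicates 1 to 3 (exact permutation p = 0.1, adjusted p = 0.133). The groups did not overlap, but morula replicate 3 and sperm replicate 2 nearly met. The high morula class took 30.03% to 31.9% in morulae and 24.4%, 22.1% and 32.2% in sperm, and these ranges overlapped (exact permutation p = 0.4, adjusted p = 0.4).

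The levels of kept and lost windows in control libraries describe the rule that chose them. Kept windows had 1.87 ± 0.0766 CPM in control morulae and 1.63 ± 0.421 CPM in control sperm (SD, n = 3). Lost windows had 0.256 ± 0.0147 CPM in morulae, 0.742 and 0.841 CPM in sperm replicates 1 and 2 and 1.26 CPM in sperm replicate 3. The DDT-lineage morulae took no part in these fates, and the same order was seen there, with 1.94 ± 0.198 CPM in kept and 0.319 ± 0.00989 CPM in lost windows (SD, n = 3). There 98.4% of kept windows lay in the high morula class, and 0.716% of lost windows did. At or below the median of DDT-lineage morulae lay 41% of lost windows, 8.78% of those between and 0.0103% of kept windows.

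Kept windows more often had a neighbour of the same fate than lost windows did. Next to a kept window stood another kept window in 66.0% of cases, where 6.38% of all windows had a kept neighbour. The value was 50.0% for the whole high sperm class, 55.7% for windows high in both classes and 65.6% for the high morula class, and 65.2% of kept runs were single windows. For lost windows the values were 0.589% and 0.188%, and 2368 separate runs held the 2375 windows. Fragments that span a boundary give counts to neighbouring windows, so a run can hold shared reads. The outer 2 Mb of the autosomes held 4.32% of kept, 1.93% of between and 1.01% of lost windows, against 2.94% of all windows. The share was 4.33% for the high morula class, 3.81% for windows high in both classes and 2.85% for the high sperm class. The kept share was thus that of the high morula class, and not particular to kept windows.

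The widest kept run covered 40 kb at chr16:37749001-37789000, with 4.25, 4.29 and 4.80 CPM in morulae and 3.45, 3.26 and 13.9 CPM in sperm replicates 1 to 3. None of its windows passed the test, and sperm replicate 3 lay far above the other 5 libraries. The next covered 34 kb at chr14:46522001-46556000, with 11.4 to 13.1 CPM in morulae and 7.5, 6.17 and 13.03 CPM in sperm. In the run of 29 kb at chr1:55694001-55723000 the groups did not overlap, with 6.70 to 7.33 CPM in morulae and 3.21 to 4.47 CPM in sperm, and 14 windows rose. No lost run was wider than 2 kb. Those at chr1:278210001-278212000 and chr6:124028001-124030000 had 0.242 ± 0.0645 and 0.190 ± 0.0121 CPM in morulae, against 0.824 ± 0.199 and 0.988 ± 0.490 CPM in sperm (SD, n = 3).

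The number of other high sperm windows nearby was compared between 4 parts of the class of similar size. Among windows with 0 to 7 other members within 50 kb, 51.1%, 51.2% and 49.4% lay in the top 10% of morula replicates 1 to 3, against 57.0%, 48.0% and 70.3% in sperm replicates 1 to 3, and the groups overlapped. Among windows with 17 to 85 other members the morula values were 53.7%, 54.7% and 52.6% and the sperm values 70.8%, 67.0% and 68.2%, with no overlap. The share that fell was 29.2% in the sparse and 40.5% in the dense part, against 12.8% of all windows tested. Rises were also more frequent in the dense part, with 2.21% and 4.64%, against 16.8% of all windows. The kept share was higher in the dense part too, at 36.5% and 42.1% in morulae and 29.4% and 40.7% by the same rule in sperm. The median signal that formed the class was 1.04 CPM in the sparse and 1.13 CPM in the dense part, so the level differed too.

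Chromosomes differed widely in how much of their high sperm class stayed high in the embryo. On chromosome 2 the morula libraries had 62.1%, 62.3% and 61.1% of the class in their top 10%, and the sperm libraries 67.2%, 59.5% and 73.7%. On chromosome 12 the morula values were 37.7%, 39.3% and 36.2% and the sperm values 62.3%, 58.2% and 63.8%, and on chromosome 10 they were 38.4%, 38.8% and 36.6% against 60.2%, 55.8% and 64.7%. All 3 morula libraries lay below all 3 sperm libraries on 19 of the 20 autosomes, and chromosome 2 was the exception. Kept windows made up 51.0% of the class on chromosome 2 and 23.1% and 23.4% on chromosomes 10 and 12, while the same rule in sperm gave 40.5%, 29.0% and 30.1%.

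The same chromosomes differed at matched signal. Among windows ranked from 90 to 95%, with a median of 0.918, 0.916 and 0.917 CPM in DDT-lineage sperm on chromosomes 2, 10 and 12, 29.7%, 8.64% and 8.56% were kept. In the sperm libraries the same windows met the rule in 12.6%, 10.2% and 10.5%. The rule in sperm includes replicate 3, and values by chromosome without it are not given. In this range 33.1% of windows fell on chromosome 2, 51.1% on chromosome 10 and 55.7% on chromosome 12, against 42% on all autosomes. All tested windows followed the same order, with 9.70% lower on chromosome 2, 17.1% on chromosome 10 and 23.8% on chromosome 12, so the order was not particular to the high sperm class. Chromosome 12 also had the most high windows, 15.2% of those placed, against 9.33% on chromosome 2.

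**Figure D5:**
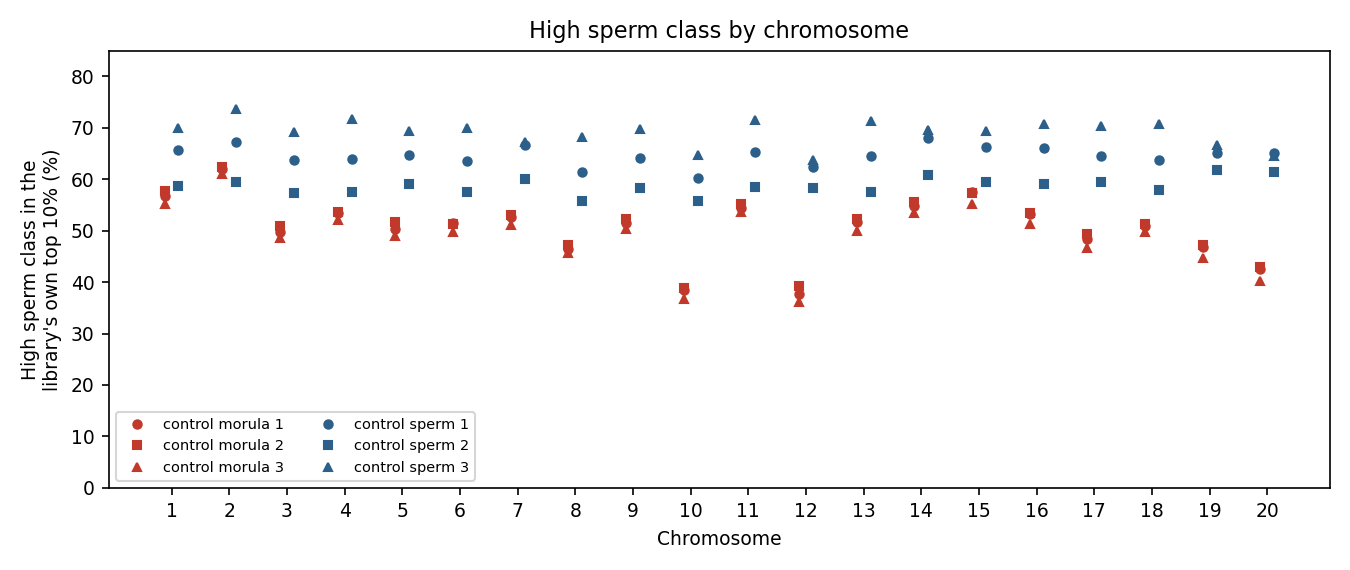
Share of the high sperm class that lay in each library's own top 10% (y axis, percent, at equal depth) on each autosome (x axis). Each point is 1 library, with morulae in red and sperm in blue. The morula values run from about the sperm values on chromosome 2 down to 36.2% to 39.3% on chromosome 12, where the sperm values are 58.2% to 63.8%.

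Gain of signal from low sperm levels was rare and clustered. Of 1255054 windows at or below the median of DDT-lineage sperm signal, 7158 (0.570%) lay in the top 10% of all 3 control morula libraries, and 0 lay in that of all 3 control sperm libraries. The windows were picked by low sperm signal, so a low count in sperm follows in large part from that choice. The signal of the 7158 gained windows was 0.982 ± 0.0322 CPM in morulae and 0.221, 0.230 and 0.149 CPM in sperm replicates 1 to 3. It was 1.00 ± 0.0320 CPM in the DDT-lineage morulae. They were chosen by their morula counts, so the 7022 of them past edgeR's test are a description. In the high morula class of the DDT lineage lay 96.5% of them. Of 2629 bins of 1 Mb, 768 held a gained window and the 10 fullest held 21.1% of all. The fullest were chr1:179000001-180000000 with 209 and chr6:16000001-17000000 with 204. The 3 widest gained runs all lay in the latter bin, the longest over 11 kb at chr6:16854001-16865000 with 1.47, 1.37 and 1.45 CPM in morulae and 0.197, 0.230 and 0.120 CPM in sperm, where all 11 windows rose. By chromosome, gained windows made up 1.23% of windows at or below the median of sperm signal on chromosome 12 and 0.108% on chromosome 11.

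Single windows show the extremes of each fate. In the high sperm class the fall of smallest p was at chr7:138644001-138645000, with 0.106, 0.051 and 0.102 CPM in morulae and 1.52, 2.15 and 0.691 CPM in sperm replicates 1 to 3. Its log2 difference was -4.24 (SE 0.48, adjusted p = 0.000166 by edgeR), and its 3 morula counts of 7, 3 and 5 lay near the counting floor of 3. Next came chr5:9054001-9055000, chr8:94589001-94590000, chr3:166373001-166374000 and chr17:77740001-77741000, with log2 differences of -3.23, -3.09, -3.27 and -2.89. The DDT-lineage morulae, not used in the test, had 0.251 CPM in the window of chromosome 7 and 0.228 to 0.397 CPM in the other 4. The DDT-lineage sperm, which formed the class, had 0.853 CPM and 1.08 to 1.38 CPM. In the leading window and in each of the other 4 the gap was smaller there than in the control lineage, in which they were picked by smallest p.

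Some windows high in sperm rose further. The smallest p was at chr1:55647001-55648000, where morula replicates 1 to 3 had 6.10, 6.61 and 6.36 CPM and sperm replicates 1 to 3 had 0.940, 1.09 and 0.527 CPM, a log2 difference of 2.70 (SE 0.34, adjusted p = 0.000217 by edgeR). The window lies shortly before the kept run of 29 kb on the same chromosome. Others were at chr1:11913001-11914000, chr4:77446001-77447000, chr16:21953001-21954000 and chr19:26519001-26520000, with log2 differences of 2.54, 2.41, 2.24 and 2.33. In each the 3 morula libraries lay above the 3 sperm libraries by the rule that chose them.

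Of the 4 named kept windows of highest sperm signal, 3 depended on sperm replicate 3. At chr5:24718001-24719000, morulae had 3.39, 3.28 and 3.68 CPM and sperm had 3.50, 2.63 and 6.85 CPM (log2 difference -0.46, SE 0.39, adjusted p = 0.391 by edgeR). At chr12:34737001-34738000, chr5:121135001-121136000 and chr10:36161001-36162000 the log2 differences were -0.47, -0.24 and -0.11, and without sperm replicate 3 they turned to 0.53, 0.77 and 1.05 and passed the test.

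Among gained windows, chr8:182001-183000 and chr2:198590001-198591000 had the smallest p, with log2 differences of 6.67 and 5.58. In both, every morula library had at least 2.31 CPM and no sperm library more than 0.0774 CPM. The others were at chr12:9545001-9546000 (log2 difference 5.05), at chr2:156442001-156443000, with 1.52, 1.495 and 1.57 CPM in morulae and 0.0622, 0.0826 and 0.0658 CPM in sperm (4.29), and at chr20:2700001-2701000. The last had 53, 32 and 38 counts in morulae and 0, 1 and 0 in sperm. Scaled by the library totals, the ratio of pooled counts was 261, with an exact 95% counting interval of 46.0 to 10404. This window was picked for low sperm and high morula signal, and its morula counts carried it past the filter. The interval covers counting error only, not the spread between libraries or the choice of the window, so it is no support for a gain.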

How the data were processed

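Per the submitters' processing notes, the tools were Bowtie2, SAMtools, Trimmomatic, FastQC and edgeR (no versions or roles given) and the build was Rnor_6.0. The authors deposited raw read counts per 1000 bp window, and beside them an edgeR adjusted p-value per window, used only as an alternative. Duplicate handling is not given in the sources used here, and 13 columns of deposited RPKM were not used. Coordinates are those of the deposited tables. An annotation or genome of that build was not used here, so genes and sequences are not named.

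Counts were tested in R 4.3.3 by the quasi-likelihood test of edgeR 4.0.16 (legacy=FALSE, TMM scaling, windows with at least 30 counts over 6 libraries, all chromosomes, two-sided). The plan asked for the package's defaults without naming this switch, and a fit with a trended dispersion is given as an added alternative. For ranks, each control library was thinned at random to 30386626 counts, and ties were broken at random with fixed seeds. Shares per library were compared by exact permutation. PCR copies cannot be told from separate molecules here, so counting intervals cover counting error only.

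Named windows were, in the high sperm class, the 4 kept windows of highest sperm CPM that were not called and differed by under 0.5 (log2), the 5 of smallest p in each direction, the 5 gained windows of smallest p, and the 3 widest runs per fate. Called windows needed groups that do not overlap. At most 1 window per 10 kb was taken, and none from the 0.1% of highest count. Classes, members and lists were chosen with earlier results of these data known. The scripts were tested on simulated data. DESeq2 1.42.0, other scalings, filters, thinning and left-out replicates were tried as alternatives.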

Additional observations from a re-analysis of the deposited data

How the results depend on the processing

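Leaving out 1 replicate at a time gave 210300 to 535721 autosomal windows higher and 105492 to 591180 lower. It gave 14.1% to 51.1% of the high sperm class lower and 0.509% to 15.9% higher, 1.60% to 17.6% of the high morula class lower and 9.04% to 38.3% higher, and a median log2 difference of 0.026 to 0.26 in the latter. Most windows were called lower without sperm replicate 3 and fewest without morula replicate 1. The kept windows chr12:34737001-34738000, chr5:121135001-121136000 and chr10:36161001-36162000 ranged from -0.88 to 0.53, -0.66 to 0.77 and -0.57 to 1.05 (log2). With 1 replicate fewer the rule for kept gave 38.8% to 42.7% in morulae and 36.0% to 50.8% in sperm, and that for lost 0.946% to 2.87%, since fewer libraries must meet it.

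Thinning to the smallest library gave 123507 windows higher and 98881 lower, 17.2% of the high sperm class lower and 1.53% higher, and 2.60% of the high morula class lower and 11% higher. Offsets fitted per library along window abundance gave 110132 higher and 116161 lower, 13.4% of the high sperm class lower, and medians of -0.31 and 0.37. The cause was not tested. DESeq2 gave 225278 higher, against 235563 lower, and 1.65% of the high sperm class higher, and scaling by library size 7.62%, with 63.9% of called windows higher against 56.7%, and a median over autosomal windows of 0.16 against 0.06. With a 2-fold minimum 1.66% of the high sperm class was higher. A trended dispersion gave 340459 higher and 267511 lower windows, with 34.9% of the high sperm class lower.

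For classes formed by the control lineage itself the median was -0.99, with 37.7% kept and 2.22% lost. The top 5% gave 2.37% of the high morula class lower, a median of 0.40 and 45.7% of the high sperm class kept. The top 20% gave 12.6% of the high morula class lower, a median of -0.025, and 33.1% kept, 2.89% lost and 42.6% kept in sperm. The kept share was 41.6% on counts as deposited and 37.1% without DDT sperm replicate 4 in the class, and DDT sperm replicate 4 alone gave 36.1% kept and 3.68% lost. The average of sperm and morula signal gave 24.3% lower, 9.34% higher, a median of -0.33 and 52.1% kept, with a difference of morula minus sperm of 6.86 percentage points within the top 10% and of -0.83 in the share of counts. The first turned against the high sperm class (-12.7) and the second against the high morula class (4.59). Same-numbered morula and sperm libraries did not deviate together (r = 0.0019, 0.0078 and 0.0182 over windows), and not every library correlated best with its own number. All pairs had r from -0.0142 to 0.0182, so these values cannot decide whether the numbers pair the samples. The replicate block gave 349885 windows higher and 277422 lower, with 36.2% of the high sperm class lower, and changed no call of a named window. The kept window of chromosome 5 at 24718001 passed the test as lower with the abundance offset.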
